A study of Sus scrofa with 105 samples.

Results

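The levels of ssc-miR-204 and ssc-miR-34c, a pair of porcine miRNAs known from choroid plexus and ciliated epithelium, were followed through 105 small RNA libraries of piglet brain. Both were taken by name from a table of 542 entries, which hold 448 distinct miRNAs once repeated entries are merged, so they are 2 of 448. ssc-miR-204 has 1 entry with 242522 counts over all libraries. ssc-miR-34c has 2 entries with the same counts in every library, 1 for each precursor, and 1 of them with its 180925 counts was kept.

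Female piglets were the source, and their brain tissue had been fixed and embedded in paraffin. The study concerned diffuse traumatic brain injury and cyclosporine A (CsA), an immunosuppressant that inhibits calcineurin. Injured piglets without drug survived 1 day, or 6 to 8 days (the 1 week group). Injured piglets of the CsA group received 20 mg/kg per day intravenously, with a loading dose 6 hours after injury and a 24 hour infusion, and survived 30 hours. The sham group joins sham and naive piglets, untreated, with survival of 0 to 8 days. The labels give neither age nor strain. From hippocampus and amygdala, taken as 1 region, there were 10 libraries at 1 day, 15 at 1 week, 10 with CsA and 18 from sham animals, and from the frontal lobe 10 at 1 day, 15 at 1 week, 9 with CsA and 18 from sham animals. Animal codes in the library names mark 53 animals, 52 of them with both regions, whereas the series text speaks of 50 subjects. Replicates are taken to be animals on the strength of these codes.

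The choroid plexus is the secretory epithelium of the brain ventricles that makes cerebrospinal fluid, and its cells carry tufts of cilia. miR-204 is among the abundant miRNAs of that epithelium and of the retinal pigment epithelium, and it is processed from an intron of TRPM3, the gene of a cation channel. miR-34c is made together with miR-34b, and in mouse and human miR-34b/c and other miRNAs of their seed family act in the building of motile cilia. miR-34b/c are also targets of p53. In the RefSeq annotation of Sscrofa11.1, MIR204 lies within the span of TRPM3, and MIR34C-1 within the spans of BTG4 and C9H11orf88, as positions only and with no measurement of these genes. The miRNA sequences were not used here.

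The median library total was 7257404 counts, the lowest 98008 and the highest 12703535, and 3 libraries held under 1000000. Levels are given as counts per 1000000 counts of the library (CPM), scaled with TMM factors, a correction for differences in composition between libraries. Of 7 miRNAs listed as markers of choroid plexus and ciliated epithelium, miR-204 and miR-34c are the 2 with an entry in the table. The label could therefore not be checked against markers other than the pair itself. The labels name no choroid plexus, only the brain regions, and in such bulk tissue fewer cells of a type cannot be told apart from less RNA per cell.

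miR-204 was higher in the hippocampus and amygdala than in the frontal lobe in every group, and its level in the hippocampus and amygdala was spread widely between animals. Its lowest, median and highest levels there were 192.1, 568.4 and 1516 CPM at 1 day. At 1 week they were 92.5, 226.3 and 1261 CPM, and with CsA 153.9, 284.6 and 939.5 CPM. Sham animals had 96.5, 195.9 and 1229 CPM. The highest library stood 13.6 times above the lowest at 1 week and 12.7 times in sham. Frontal libraries had lowest, median and highest levels of 114.3, 148.3 and 189.2 CPM at 1 day. At 1 week they were 45.8, 106.7 and 146.4 CPM, and with CsA 110.4, 130.5 and 181.7 CPM. Sham animals had 29.6, 85.1 and 166.9 CPM there. The 29.6 CPM rests on 2 counts in the library with the lowest total, 98008 (replicate 15). The next lowest frontal sham level, 52.8 CPM, rests on 30 counts in a library of 678907 (replicate 16). All frontal groups overlapped one another, and no frontal library of any group reached the median of the sham libraries of the hippocampus and amygdala.

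miR-34c had its higher medians in the same region, with an even wider spread and no library at 0. In the hippocampus and amygdala its lowest, median and highest levels were 4.42, 415.2 and 779.4 CPM at 1 day. At 1 week they were 90.6, 288.7 and 1021 CPM, and with CsA 28.9, 337.0 and 477.6 CPM. Sham animals had 4.38, 298.0 and 799.9 CPM, so the highest sham library stood 182.8 times above the lowest. Frontal libraries had lowest, median and highest levels of 26.1, 95.6 and 194.4 CPM at 1 day. At 1 week they were 2.59, 118.7 and 222.5 CPM, and with CsA 31.9, 88.3 and 158.4 CPM. Sham animals had 6.68, 100.0 and 187.0 CPM there. The ranges of all groups overlapped within each region.

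**Figure D1:**
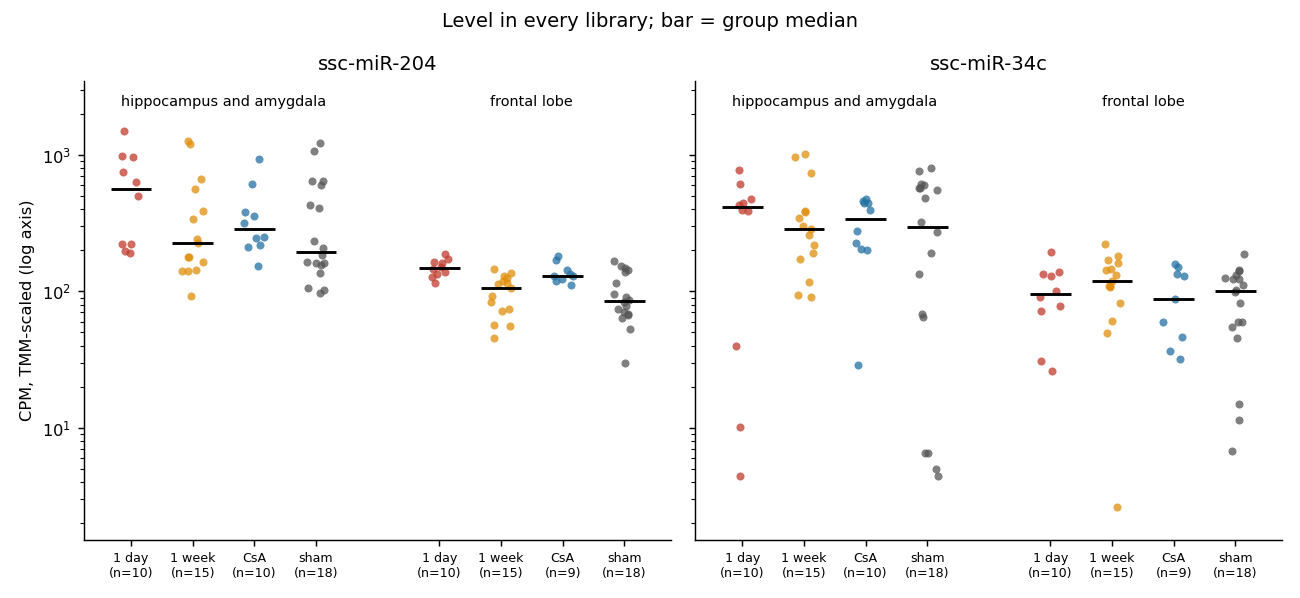
Level of miR-204 (left) and miR-34c (right) in every library, in TMM-scaled CPM on a log axis, by region and group, with a bar at each group median. Frontal miR-204 lies between 29.6 CPM (2 counts in the library with the lowest total) and 189.2 CPM, whereas miR-34c in the hippocampus and amygdala runs from 4.38 to 1021 CPM.

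Ordered by median, the 8 region groups of miR-204 ran from the hippocampus and amygdala at 1 day, with CsA, at 1 week and in sham to the frontal lobe at 1 day, with CsA, at 1 week and in sham. The means of neighbours in this order differed by less than the larger SD of the pair, except for frontal CsA (137.7 ± 23.4 CPM, SD, n = 9) over frontal 1 week (97.9 ± 31.8 CPM, n = 15). For miR-34c the order was 1 day, CsA, sham and 1 week in the hippocampus and amygdala, then 1 week, sham, 1 day and CsA in the frontal lobe. No neighbours of that order differed beyond the SD. By median over the region, miR-204 ranked 86th and miR-34c 81st among the miRNAs of the hippocampus and amygdala, and 113th and 116th in the frontal lobe.

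The spread between animals of 1 group was itself large beside that of other miRNAs. Among 200 miRNAs with a mean of at least 10 CPM in the hippocampus and amygdala, miR-34c had the highest SD within groups, 2.11 on the log2 scale, and miR-204 the 5th highest, 1.10, where the median miRNA had 0.33. Among 207 such miRNAs of the frontal lobe, miR-34c ranked 11th with 1.26 and miR-204 61st with 0.49, where the median was 0.37.

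Both regions of the same animal were then compared, in a fit with the animal as a block. miR-204 was higher in the hippocampus and amygdala than in the frontal lobe of the same animal in 52 of 52 animals, with a median ratio of 2.04 and a range of 1.11 to 16.1. The median ratio was 4.15 at 1 day (n = 10), 2.11 at 1 week (n = 15), 1.93 with CsA (n = 9) and 2.08 in sham (n = 18). miR-34c was higher in the hippocampus and amygdala in 40 of 52 animals and lower in 12, with a median ratio of 3.54 and a range of 0.0317 to 117.1. It was higher in 7 of 10 animals at 1 day, 12 of 15 at 1 week, 8 of 9 with CsA and 13 of 18 sham animals. The direction was thus the same in all animals for miR-204 and mixed in every group for miR-34c.

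**Figure D2:**
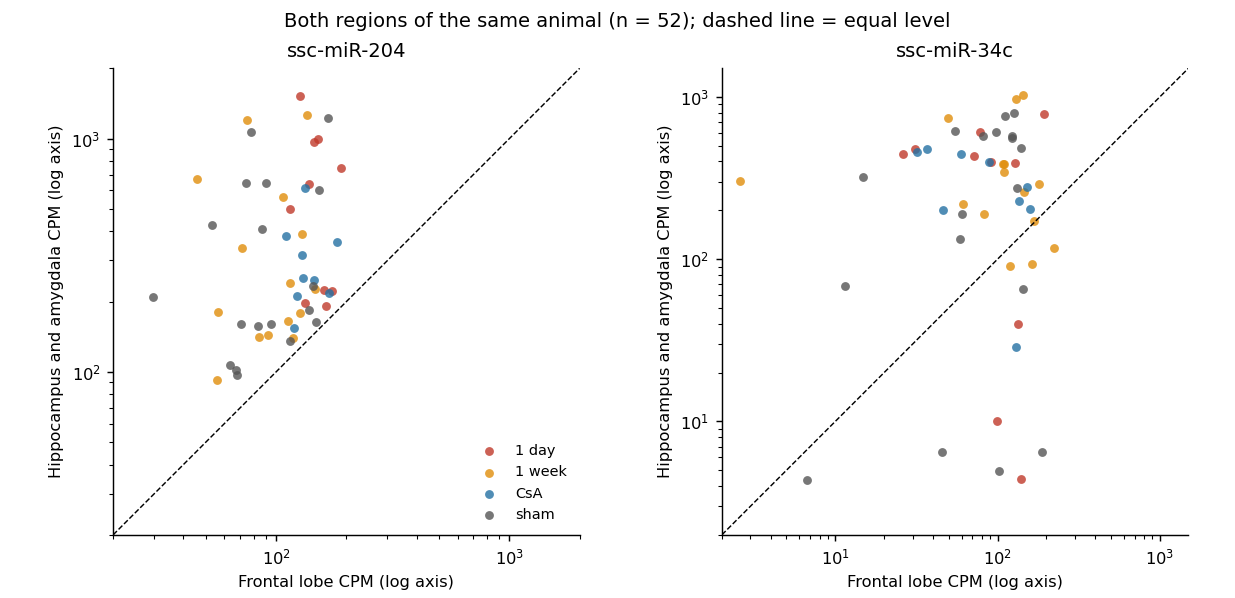
Level in the hippocampus and amygdala (vertical) against the frontal lobe (horizontal) of the same animal for miR-204 (left) and miR-34c (right), both in TMM-scaled CPM on log axes, 1 point per animal (n = 52). All miR-204 points lie above the dashed line of equal levels, whereas 12 miR-34c points lie below it.

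The fold of miR-204 between the hippocampus and amygdala and the frontal lobe was 3.32 at 1 day (log2 1.73, SE 0.37, adjusted p = 0.000165). It was 2.96 at 1 week (log2 1.57, SE 0.31, adjusted p = 4.29e-05) and 2.00 with CsA (log2 1.00, SE 0.37, adjusted p = 0.0197). In sham animals it was 2.76 (log2 1.47, SE 0.28, adjusted p = 3.25e-05). These values come from edgeR's quasi-likelihood test with Benjamini-Hochberg adjustment, as do all adjusted p-values of differences below unless another test is named. The same test called 46.6% of 298 miRNAs between the regions at 1 day, 43% at 1 week, 57% with CsA and 47.3% in sham, so a call between regions was common. The CsA value lost its call without the animal of replicate 6 of the hippocampus and amygdala (log2 0.87, adjusted p = 0.0556).

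The region difference of miR-34c was of like size but with a larger error. At 1 week the fold was 2.77 (log2 1.47, SE 0.62, adjusted p = 0.0494), which passed the threshold of 0.05 narrowly. It kept that call in 8 of 33 fits that left out 1 animal of the 1 week or sham group. At 1 day log2 was 1.49 (SE 0.89, adjusted p = 0.174), with CsA 1.66 (SE 0.81, adjusted p = 0.0762) and in sham 1.24 (SE 0.62, adjusted p = 0.0967), none of which passed. The CsA value passed without the animal of replicate 9 (log2 2.03, adjusted p = 0.0289), and the sham value without the animal of replicate 11 (log2 1.47, adjusted p = 0.0383) or 16 (log2 1.42, adjusted p = 0.0456), as numbered in the hippocampus and amygdala. Under DESeq2 the 1 day, CsA and sham differences passed as well (log2 1.45, 1.63 and 1.32, with adjusted p = 0.0342, 0.0193 and 0.00886). The share of all miRNAs that DESeq2 called between the regions is not given here. How common such calls were under that test therefore cannot be read from these values.

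miR-34a, which shares the seed of miR-34c but is made from a separate gene and is widely expressed in neurons, is the other measured member of that seed family, of which 2 of 6 listed miRNAs have an entry. Its levels ran the other way between the regions. The lowest, median and highest levels of the hippocampus and amygdala were 254.6, 428.6 and 1227 CPM (n = 53), against 460.4, 736.5 and 1015 CPM in the frontal lobe (n = 52). The difference was log2 -0.71 at 1 day (adjusted p = 0.00148), -0.80 at 1 week (adjusted p = 2.98e-05), -0.96 with CsA (adjusted p = 3.68e-05) and -0.72 in sham (adjusted p = 3.15e-05). miR-34a thus fell in the region where the median of miR-34c was higher. Of its own seed family, miR-204 is the single listed member with an entry.

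Listed markers of several other cell types were also lower in the hippocampus and amygdala than in the frontal lobe. Of 8 miRNAs of other epithelia tested, 0 were higher and 6 lower in the hippocampus and amygdala than in the frontal lobe at 1 day, 1 and 4 at 1 week, 1 and 6 with CsA, and 1 and 6 in sham. Over all miRNAs the share called in either direction was 46.6% at 1 day, 43% at 1 week, 57% with CsA and 47.3% in sham. In the same order, 64, 65, 84 and 76 of 298 miRNAs were lower in the hippocampus and amygdala, and 75, 63, 86 and 65 higher. The list counts are of entries, so the arms of 1 hairpin count separately. Both arms of miR-126, the 1 endothelial miRNA listed, were lower in all 4 groups. So were 2 of 3 oligodendrocyte miRNAs. Mural cell miRNAs, of vascular smooth muscle and pericytes, had 3, 3, 4 and 2 of 7 lower at 1 day, at 1 week, with CsA and in sham, and 1 of 7 higher in sham. Neuronal miRNAs had 1 or 2 of 4 lower in each group. Erythroid miRNAs had 1 of 3 higher at 1 day and with CsA and none lower, and those of microglia and leukocytes had 1 or 2 of 5 lower in each group and 1 of 5 higher at 1 day and at 1 week. miR-200b, an epithelial miRNA, had a median of 0.135 CPM in the hippocampus and amygdala, with 19 of 53 libraries at 0, against 15.2 CPM in the frontal lobe, with 8 of 52 at 0. miR-182, of a sensory and epithelial cluster, had a median of 4.28 CPM in the hippocampus and amygdala, against 106.9 CPM in the frontal lobe. The medians of miR-141, miR-183, miR-429 and miR-96-5p were also higher in the frontal lobe. Those of miR-375 and miR-205 ran the other way, at 85.4 and 1.38 CPM in the hippocampus and amygdala against 32.9 and 0.756 CPM. A sum over the list thus mixes both directions. The summed level of the 8 ran from 7.52 to 323.6 CPM in the hippocampus and amygdala, with a median of 96.0, and from 8.42 to 3101 CPM in the frontal lobe, with a median of 323.9. Whether the frontal tissue differed between libraries in what was dissected was not tested, nor was the part of these levels in the region differences of the pair. Within the list of other epithelia miR-375, a miRNA of endocrine and neuroendocrine cells, is the member with the highest mean in the hippocampus and amygdala, and it is described below with miR-34c.

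Next, each injured group was set against sham within a region. In the frontal lobe miR-204 was 1.44-fold higher at 1 day than in sham (149.5 ± 22.7 CPM, SD, n = 10, against 95.8 ± 39.2, n = 18; log2 0.53, SE 0.17, adjusted p = 0.00983). With CsA it was 1.42-fold higher than in sham (137.7 ± 23.4 CPM, n = 9; log2 0.50, SE 0.17, adjusted p = 0.0228). All 10 libraries at 1 day and all 9 with CsA lay above the sham median, and 12 of 18 sham libraries lay below the lowest library of either group. The test called 44.7% of 284 miRNAs at 1 day and 34.2% with CsA, and the median over all 284 was log2 -0.04 at 1 day and 0.02 with CsA. On library totals without composition scaling the all-miRNA median moved to 0.24 and 0.22, and miR-204 to 0.78 and 0.67, still called.

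Depth and animal code moved with this frontal difference. Frontal totals had medians of 9866050 at 1 day, 8438371 with CsA and 4679652 in sham. Over the 52 frontal libraries, each taken as its deviation from its group mean, miR-204 rose with log10 total (Pearson r = 0.663, permutation p = 3e-05, adjusted p = 0.00024; Spearman rho = 0.413, permutation p = 0.0057, adjusted p = 0.023). Without the 2 most extreme totals r was 0.463. With log10 total as a covariate the 1 day difference was log2 0.22 (adjusted p = 0.321) and the CsA difference 0.25 (adjusted p = 0.291), and neither passed. The correlation was not called for miR-204 in the hippocampus and amygdala (r = 0.0824, permutation, adjusted p = 0.64) or for miR-34c in either region.

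All animals at 1 day and with CsA have codes that begin with 11, 12 or 13, as do 11 of the 18 sham animals. Among frontal libraries with codes beginning 11, miR-204 had lowest, median and highest levels of 133.0, 151.8 and 173.1 CPM at 1 day (n = 5), against 52.8, 85.1 and 143.8 CPM in sham (n = 6). That difference was log2 0.70 (adjusted p = 0.00755). With codes beginning 12 or 13 the levels were 114.3, 144.7 and 189.2 CPM at 1 day (n = 5), against 78.1, 147.9 and 166.9 CPM in sham (n = 5), and the difference was log2 0.04 (adjusted p = 0.941). The CsA difference was log2 0.45 (adjusted p = 0.141) within codes 11 and 0.10 (adjusted p = 0.864) within codes 12 and 13. The frontal difference of miR-204 at 1 day was called in 1 set of codes and not in the other. At 1 day the calls over all miRNAs parted likewise. Within codes 11 edgeR called 101 of 278 miRNAs at 1 day and 35 of 278 with CsA, both against sham. Within codes 12 and 13 it called 0 of 284 in both. There 61 and 40 had an unadjusted p under 0.05, and DESeq2 called 10 and 0. The difference between the sets was not tested. Depth differed between the sets as well. Frontal sham libraries had a median total of 2839274 for codes 11 and 8767444 for codes 12 and 13. Those at 1 day had 7133782 and 10309681. The part of depth in the differing calls was not tested.

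At 1 week frontal miR-204 averaged 97.9 ± 31.8 CPM (SD, n = 15), close to the sham mean of 95.8 ± 39.2 (n = 18), with log2 -0.06 (SE 0.15, adjusted p = 0.998). Here edgeR called 0% of 284 miRNAs, with 19 at an unadjusted p under 0.05 and 1 called by DESeq2. Against 1 day, frontal miR-204 was lower at 1 week (log2 -0.59, SE 0.18, adjusted p = 0.00871), and no 1 week library exceeded the 1 day median of 148.3 CPM. That comparison called 35.9% of miRNAs. Within codes beginning 11 the difference was log2 -0.65 (adjusted p = 0.169), with 4 animals at 1 week and 5 at 1 day. With log10 total as a covariate it stayed called (log2 -0.44, adjusted p = 0.021).

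CsA and 1 day did not differ in frontal miR-204 beyond the error (log2 -0.03, SE 0.20, adjusted p = 0.984). edgeR called 0% of miRNAs in this comparison, with 12 at an unadjusted p under 0.05 and 0 by DESeq2. The CsA minus sham call was lost without CsA replicate 1 (log2 0.46, adjusted p = 0.0596) or replicate 4 (log2 0.45, adjusted p = 0.0624), the CsA libraries with the highest levels. The call at 1 day against sham held in all 28 fits that left out 1 library, with log2 between 0.48 and 0.60.

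In the hippocampus and amygdala no difference of miR-204 between groups passed. At 1 day it averaged 619.0 ± 443.0 CPM (SD, n = 10), against 374.0 ± 339.9 in sham (n = 18), with log2 0.80 (SE 0.44, adjusted p = 0.118). The point estimate was larger than in the frontal lobe, and so was its error (SE 0.44 against 0.17). The sham median was 320.2 CPM for codes 11 (n = 6) and 604.3 for codes 12 or 13 (n = 5). For codes 10 or 14 to 17, which no 1 day animal had, it was 135.3 CPM (n = 7). At 1 day the median was 224.0 CPM for codes 11 (n = 5) and 747.5 for codes 12 or 13 (n = 5). The part of the codes in this difference was not tested. At 1 week miR-204 averaged 395.4 ± 376.9 CPM (n = 15; log2 0.11 against sham, SE 0.40, adjusted p = 0.912). With CsA it averaged 369.1 ± 238.0 CPM (n = 10; log2 -0.01 against sham, SE 0.45, adjusted p = 0.986). CsA minus 1 day gave log2 -0.81 (SE 0.51, adjusted p = 0.338) and 1 week minus 1 day log2 -0.70 (SE 0.46, adjusted p = 0.228).

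This absence of a call came in a region where other miRNAs were called. The test called 48.6% of 290 miRNAs at 1 day against sham, 20.3% with CsA against sham and 29.3% at 1 week against 1 day. It called 0.345%, or 1 miRNA, at 1 week against sham, where 15 had an unadjusted p under 0.05 and DESeq2 called 3. It called 0% with CsA against 1 day, where 69 had an unadjusted p under 0.05 and DESeq2 called 7.

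No difference of miR-34c between groups passed in either region by edgeR. In the frontal lobe it averaged 99.4 ± 51.6 CPM at 1 day (SD, n = 10), 119.8 ± 55.9 at 1 week (n = 15), 92.9 ± 51.3 with CsA (n = 9) and 90.0 ± 51.2 in sham (n = 18). Against sham, log2 was 0.03 (SE 0.38, adjusted p = 0.948) at 1 day, 0.34 (SE 0.34, adjusted p = 0.962) at 1 week and 0.01 (SE 0.40, adjusted p = 0.978) with CsA. CsA minus 1 day was -0.02 (adjusted p = 0.984) and 1 week minus 1 day 0.31 (adjusted p = 0.541). The frontal ranges of miR-34c overlapped between all groups.

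Within the hippocampus and amygdala miR-34c averaged 359.1 ± 262.3 CPM at 1 day (SD, n = 10), 371.7 ± 299.6 at 1 week (n = 15), 315.5 ± 150.03 with CsA (n = 10) and 336.9 ± 285.9 in sham (n = 18). Against sham, log2 was 0.16 (SE 0.63, adjusted p = 0.842) at 1 day, 0.16 (SE 0.56, adjusted p = 0.908) at 1 week and -0.10 (SE 0.63, adjusted p = 0.927) with CsA. CsA minus 1 day was -0.26 (SE 0.71, adjusted p = 0.861) and 1 week minus 1 day 0.00 (SE 0.65, adjusted p = 0.997). The ranges of all groups overlapped there too. The sham median was 378.9 CPM for codes 11 (n = 6) and 576.5 for codes 12 or 13 (n = 5). For codes 10 or 14 to 17, which no 1 day animal had, it was 68.0 CPM (n = 7). At 1 day the median was 39.8 CPM for codes 11 (n = 5) and 479.3 for codes 12 or 13 (n = 5). The part of the codes in these differences was not tested.

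**Figure D3:**
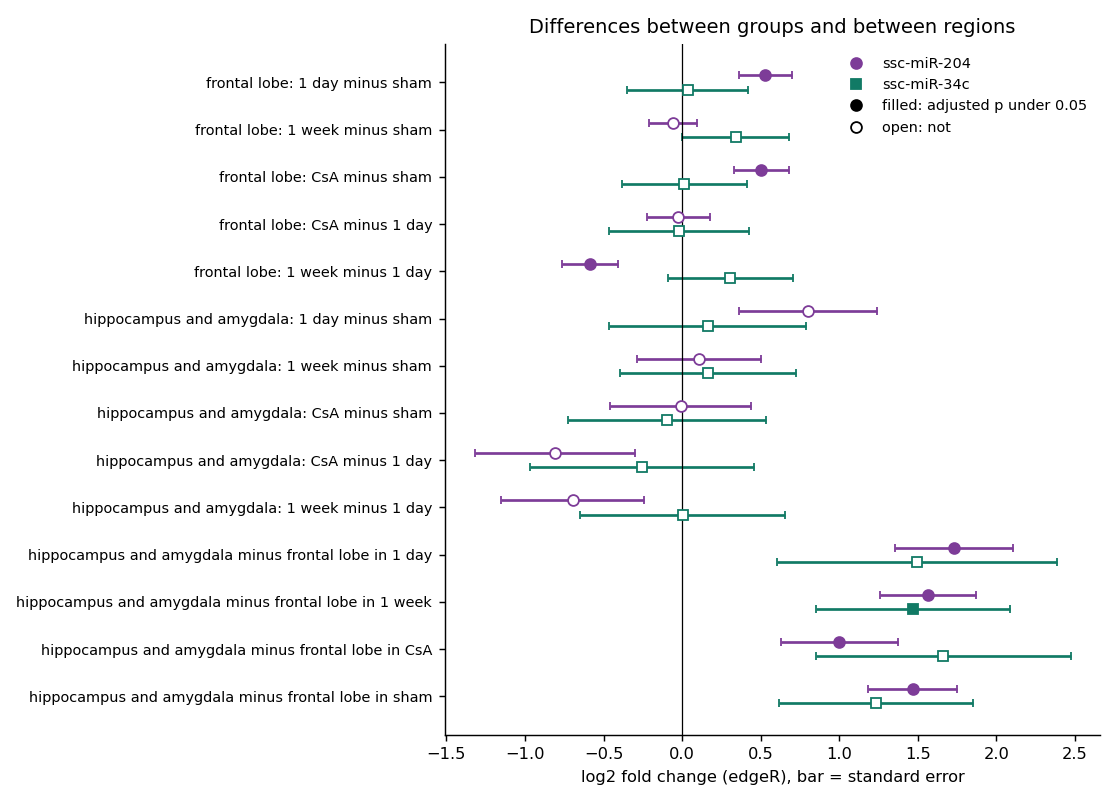
log2 fold change of miR-204 (circles) and miR-34c (squares) for each difference between groups and between regions, with bars of 1 standard error and filled symbols where the adjusted p was under 0.05. Filled symbols are the 3 frontal miR-204 differences at log2 0.53, 0.50 and -0.59, all 4 region differences of miR-204 and the 1 week region difference of miR-34c.

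Whether the difference from sham itself differed between the regions was tested as an interaction. For miR-204 it was log2 0.26 (SE 0.46, adjusted p = 0.946) at 1 day, 0.10 (SE 0.41, adjusted p = 1) at 1 week and -0.47 (SE 0.46, adjusted p = 0.539) with CsA. For miR-34c it was log2 0.26 (SE 1.04, adjusted p = 0.994) at 1 day, 0.24 (SE 0.86, adjusted p = 1) at 1 week and 0.43 (SE 1.00, adjusted p = 0.797) with CsA. Thus the call of miR-204 in the frontal lobe and its lack in the hippocampus and amygdala were not shown to differ. edgeR called 0% of 298 miRNAs in each of the 3 interactions, with 9, 8 and 73 at an unadjusted p under 0.05, and DESeq2 called 0, 0 and 26.

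Markers of other cell types were set beside these differences. In the frontal lobe 0 of 8 miRNAs of other epithelia were called at 1 day or with CsA against sham. Their summed level nevertheless had medians of 849.2 CPM at 1 day (30.1 to 2032), 1757 CPM with CsA (183.7 to 3101), 51.4 CPM at 1 week (8.42 to 2238) and 179.8 CPM in sham (18.8 to 2479). Mural cell miRNAs had 2 of 6 tested higher and 0 lower at 1 day and the same with CsA. Of all 284 miRNAs, 53 were higher and 74 lower at 1 day, or 44.7% called in either direction. With CsA 42 were higher and 55 lower, or 34.2%. Whether any list exceeded these shares was not tested. The sums of the mural cell miRNAs ran from 3563 to 5320 CPM at 1 day, 2915 to 6998 with CsA and 1482 to 4718 in sham. At 1 day against sham, 2 of 3 oligodendrocyte miRNAs were lower (list median log2 -0.29) and 1 of 2 erythroid miRNAs was lower (0.19). Of the 2 arms of endothelial miR-126, 1 was higher (0.25). Neuronal miRNAs had 2 higher and 1 lower of 4 (0.15), and of 5 of microglia and leukocytes none was called (0.079). With CsA against sham, 1 of 3 oligodendrocyte miRNAs was lower (-0.28), 1 of the 2 arms of miR-126 was higher (0.28), and erythroid miRNAs had 1 higher and 1 lower of 2 (0.83). Neuronal miRNAs had 1 higher and 1 lower of 4 there (0.047), and 1 of 5 of microglia and leukocytes was higher (0.064). The part of these levels in the miR-204 difference was not tested.

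The pair rose and fell in the same libraries of the hippocampus and amygdala, and no such relation was called in the frontal lobe. Over the 53 libraries of the hippocampus and amygdala, as deviations from group means on the log2 scale, Pearson r was 0.646 and Spearman rho 0.732 (permutation p = 1e-05 for both, the smallest these permutations can give; adjusted p = 0.00016 over 16 relations). Without the 2 libraries farthest in miR-204, r was 0.642. Within groups r was 0.715 at 1 day (n = 10, permutation, adjusted p = 0.077), 0.816 at 1 week (n = 15, permutation, adjusted p = 0.00096), 0.396 with CsA (n = 10, permutation, adjusted p = 0.56) and 0.671 in sham (n = 18, permutation, adjusted p = 0.011). Spearman rho was 0.588 at 1 day (permutation, adjusted p = 0.26), 0.796 at 1 week (permutation, adjusted p = 0.0051), 0.394 with CsA (permutation, adjusted p = 0.53) and 0.713 in sham (permutation, adjusted p = 0.0061). All 4 groups had a positive value, and those at 1 week and in sham passed.

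Over the 52 frontal libraries rho was 0.0446 (permutation p = 0.76, adjusted p = 0.87), with r at 0.105 (permutation p = 0.52, adjusted p = 0.64). Within frontal groups r was -0.325 at 1 day, -0.252 at 1 week, -0.255 with CsA and 0.472 in sham, none of which passed (permutation, exact with CsA, adjusted p from 0.13 to 0.64). A difference between the regions in this correlation was not tested. miR-34c exceeded miR-204 in 19 of 53 libraries of the hippocampus and amygdala, with ratios from 0.0199 to 5.67 and a median of 0.813, and in 25 of 52 frontal libraries, with ratios from 0.0202 to 3.15 and a median of 0.992.

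**Figure D4:**
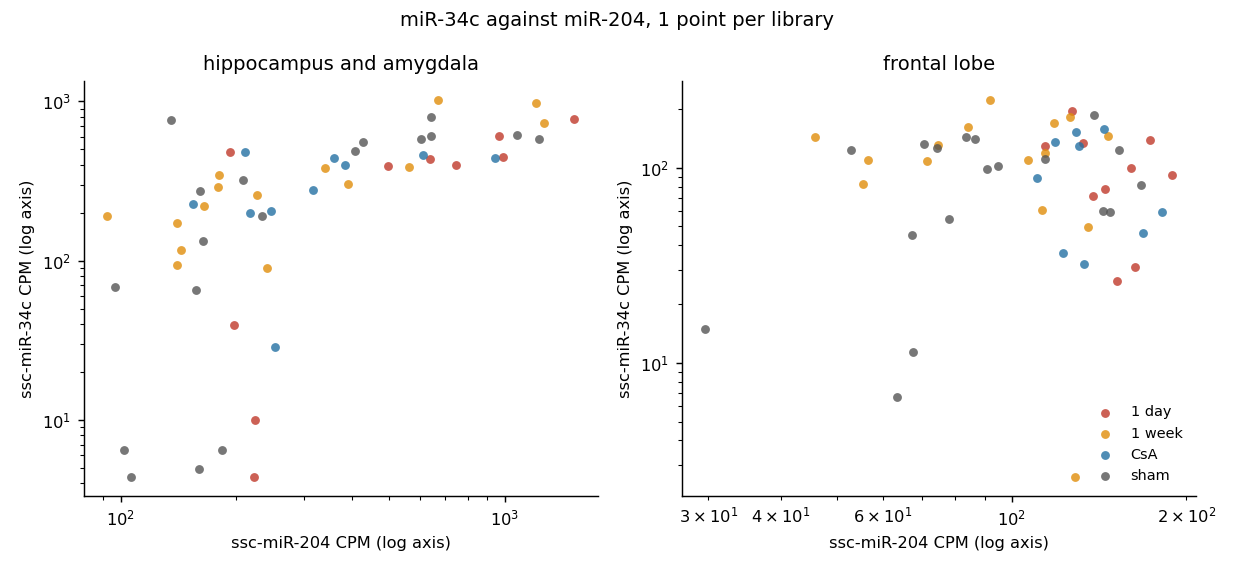
miR-34c against miR-204 in TMM-scaled CPM on log axes, 1 point per library, for the hippocampus and amygdala (left, n = 53) and the frontal lobe (right, n = 52). The points on the left climb together. Spearman rho, taken on deviations from group means and not on the plotted levels, was 0.732 on the left and 0.0446 on the right.

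No relation between an animal's levels in both regions was called. Between the hippocampus and amygdala and the frontal lobe of the same animal, r was 0.106 for miR-204 (n = 52, permutation p = 0.5, adjusted p = 0.64; rho = 0.104, adjusted p = 0.71) and 0.0305 for miR-34c (permutation p = 0.84, adjusted p = 0.84; rho = -0.0192, adjusted p = 0.94). These values are deviations from group means, so they leave out any difference between groups.

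The miRNAs most like each of the pair were sought by Spearman rho over the same deviations, as a description with no test, since libraries share depth and composition. Within the hippocampus and amygdala the 5 most like miR-204 were miR-34c (0.73), miR-34a (0.66), miR-497 (0.64), miR-375 (0.58) and miR-195 (0.58). The 5 most like miR-34c were miR-375 (0.92), miR-34a (0.74), miR-204 (0.73), miR-497 (0.59) and miR-195 (0.57). The lists thus hold the same miRNAs, with each of the pair in the list of the other. miR-497 and miR-195 are made from 1 cluster and belong to the miR-15/16 seed family.

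In the frontal lobe the lists parted. The 5 most like miR-204 were miR-505 (0.74), miR-23b (0.70), miR-186-5p (0.68), miR-130a (0.67) and miR-107 (0.66), with miR-34c at rank 111. The 5 most like miR-34c were miR-375 (0.78), miR-122-5p (0.41), a miRNA of hepatocytes, miR-20a-5p (0.41) and miR-17-5p (0.39), both of the miR-17-92 cluster, and miR-330 (0.38). miR-204 stood at rank 103 for miR-34c, and miR-34a at rank 26 for miR-34c and 122 for miR-204. miR-375 was first for miR-34c in both regions. It stayed first on library totals alone, without libraries under 1000000 counts and without libraries in which miR-34c was under 20 CPM. Its rho then lay between 0.72 and 0.93. Under these settings the frontal list of miR-204 kept 3 or 4 of its 5 miRNAs. miR-186-5p came first there in both settings that left libraries out. The other lists kept 3 to 5 of their 5.

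miR-375 had a mean of 92.9 ± 67.0 CPM (SD, n = 53) in the hippocampus and amygdala and 35.0 ± 20.4 CPM (n = 52) in the frontal lobe. Its region difference was log2 1.14 at 1 day (adjusted p = 0.146), 1.29 at 1 week (adjusted p = 0.0177), 1.68 with CsA (adjusted p = 0.0203) and 0.80 in sham (adjusted p = 0.146). In no difference between groups within a region was miR-375 called.

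**Figure D5:**
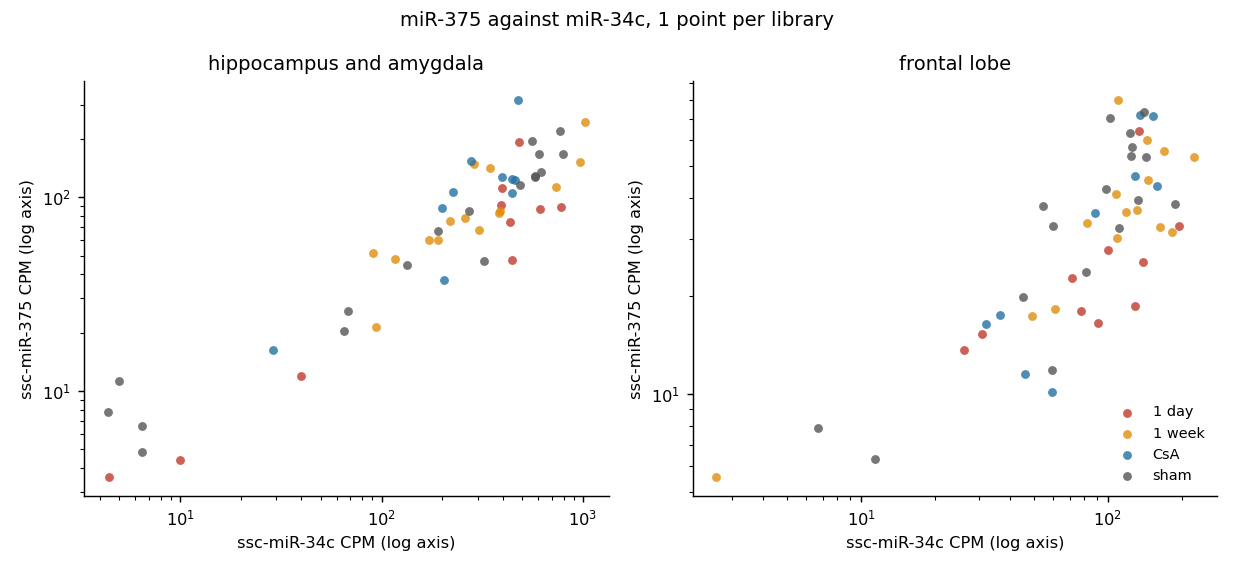
miR-375 against miR-34c in TMM-scaled CPM on log axes, 1 point per library, for the hippocampus and amygdala (left, n = 53) and the frontal lobe (right, 51 of 52 libraries, since 1 sham library at 0 for miR-375 has no place on a log axis). Both rise together, and the libraries lowest in one are lowest in the other. Spearman rho, taken on deviations from group means and not on the plotted levels, was 0.92 on the left and 0.78 over all 52 libraries on the right.

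Some libraries held little miR-34c. Under 20 CPM, a limit set after the values were seen, were 6 libraries of the hippocampus and amygdala, 2 at 1 day and 4 in sham, with 22 to 94 counts each and levels of 4.38 to 10.0 CPM. In the frontal lobe they were 1 at 1 week and 3 in sham, with 1 to 45 counts and levels of 2.59 to 14.8 CPM. The 1 frontal sham library with a single count (replicate 15) is the one with the lowest total, 98008, and its 95% exact Poisson interval of 0.375 to 82.6 CPM covers ordinary levels. For the other 9 the intervals end at 15.3 CPM or below. These intervals cover counting error only.

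The other miRNAs of these libraries are given as values only, since the libraries were picked for their miR-34c. In the hippocampus and amygdala, 1 day replicates 5 and 7 had 4.38 and 3.58 CPM of miR-375 and 224.0 and 221.8 CPM of miR-204. Sham replicates 11, 14, 16 and 17 of that region had 6.60, 4.82, 11.3 and 7.76 CPM of miR-375 and 183.4, 101.9, 160.3 and 106.6 CPM of miR-204. The frontal library at 1 week (replicate 7) had 5.55 CPM of miR-375 and 128.6 CPM of miR-204. Frontal sham replicates 7, 15 and 17 had 6.33, 0 and 7.87 CPM of miR-375 and 67.6, 29.6 and 63.4 CPM of miR-204.

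Of the 6 animals low in the hippocampus and amygdala, 1 sham animal (replicate 17 in both regions) was low in the frontal lobe as well, with 4.38 and 6.68 CPM. The other 5 had frontal levels between 45.3 and 187.0 CPM. The frontal library at 1 week with 2.59 CPM came from an animal with 303.6 CPM in the hippocampus and amygdala. Among the libraries under 20 CPM, sham replicates 14 and 17 of the hippocampus and amygdala and frontal sham replicates 7 and 17 had codes beginning 16. Only sham animals had such codes. Their remaining libraries, replicate 8 of the hippocampus and amygdala and frontal replicate 4, had 68.0 and 45.3 CPM. The other low libraries had codes beginning 10, 11, 12, 14 or 17. The part of the codes in these low levels was not tested.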

How the data were processed

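The authors deposited 1 table of raw counts, whole numbers without normalization, with mature pig miRNAs in its entries and 1 column for each library. Per the labels' protocols, RNA came from fixed tissue with a Mag-Bind FFPE kit and libraries from the QIAseq miRNA kit. The submitters' processing notes name cutadapt 1.9.1 and Trimmomatic 0.39. Which aligner, counter, annotation and build were used, and whether molecular identifiers were, was not given in the sources used here, so counts need not be independent molecules. miR-34c may share reads with its close relatives.

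Of entries under 1 mature name, the one with the largest total was kept. The same was done for near-identical entries, with totals of 100 or more and counts apart by under 0.01 of the larger total (89 entries were 0 throughout). Groups came from the labels. The quasi-likelihood test of edgeR 4.0.16 in R 4.3.3 was run over all miRNAs with TMM factors, filterByExpr (minimum count 10, minimum total 15) and Benjamini-Hochberg adjustment at 0.05, 2-sided. All 4 groups of a region entered 1 fit. Regions were compared with the animal as a block, paired by the animal code shared by both library names. Over 52 pairs the deviations of both libraries from their group means correlated at a median of 0.245 (35 pairs over 0.1), against -0.00806 for different animals. Correlations used log2(CPM + 0.5) minus the group mean and 100000 permutations within groups, exact for groups under 10 libraries. No pair of libraries of the same group and region agreed within sampling noise (smallest chi-square 4484 on 218 degrees of freedom). Pairs across groups or regions were not checked. Fits and permutations were tested on simulated data. The simulated counts had the same dispersion for every miRNA, so the wide spread of miR-34c was not represented. The alternatives were RLE factors, library totals only, DESeq2 1.42.0, no filter, unmerged entries, let-7 and miR-98 left out, libraries under 1000000 counts left out, log10 total as a covariate, sets of animal codes, only the compared groups, no block, another pseudocount (2 CPM) and each library or animal left out in turn.

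The members and lists were chosen with earlier results of these data known. The miRNAs named beside the pair are the entries of the marker lists and the 5 with the highest Spearman rho among those with a mean of at least 10 CPM.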

Additional observations from a re-analysis of the deposited data

How the results depend on the processing

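Of the log2 values of the pair under settings other than leaving 1 library or animal out, 285 kept their direction and their side of the threshold, 28 changed sign, 9 lost a call and 6 gained one. The 4 region differences of miR-204 kept their calls under all of these settings that were run on them, and the CsA value lost its call without 1 animal (0.87). The cause of the changes was not tested. Whether molecular identifiers were counted is not given, so depth in molecules is unknown. Within a region, p-values measure the spread between animals as their codes name them. In the fits with the animal as a block, they measure how the region difference varied between animals.

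With log10 total as a covariate, the frontal calls of miR-204 were lost at 1 day (log2 0.22) and with CsA (0.25) against sham. They were also lost with codes beginning 12 or 13 (0.037 and 0.10), and with codes beginning 11 the CsA call alone was lost (0.45). Within codes beginning 11, a setting chosen after seeing the data, the frontal 1 week minus 1 day call of miR-204 was lost (-0.65). The region difference of miR-34c at 1 week was lost with RLE factors (1.46), no filter (1.45) and libraries under 1000000 counts left out (1.40). DESeq2 called it at 1 day (1.45), with CsA (1.63) and in sham (1.32). Without the animal as the block, taking both libraries of an animal as independent, those 3 were called too (1.89, 1.74 and 1.81), and the interaction of miR-34c changed sign at 1 week (-0.15) and with CsA (-0.071). The unblocked fit changed no other call of the pair.

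The sign changes were all in values that were not called under either setting. On library totals only they were frontal miR-204 at 1 week against sham (0.068), and in the hippocampus and amygdala CsA minus sham of miR-204 (0.12) and miR-34c (0.11) and 1 week minus 1 day of miR-34c (-0.15). Frontal miR-34c with CsA against sham became -0.0027 with no filter, -0.0063 without libraries under 1000000 counts, -0.078 with the covariate, -0.22 with codes 11 and -0.27 with codes 12 or 13. Frontal miR-34c at 1 day against sham became -0.086 with the covariate and -0.37 with codes 11. Frontal CsA minus 1 day became 0.026 (miR-204) and 0.0083 (miR-34c) with the covariate, 0.15 (miR-34c) with codes 11 and 0.067 (miR-204) with codes 12 or 13. In the hippocampus and amygdala, 1 week minus 1 day of miR-34c became -3.6e-05 without let-7 and miR-98, -0.019 with the covariate and -0.0036 with only the compared groups. There, miR-204 at 1 week against sham became -0.0024 with the covariate, and with codes 11 miR-34c at 1 day against sham became -0.90, miR-204 with CsA against sham 0.45 and miR-34c with CsA against 1 day 0.84. Among the settings chosen after seeing the data, within codes 11, frontal 1 week minus sham became 0.10 (miR-204) and -0.15 (miR-34c), and 1 week minus 1 day of miR-204 in the hippocampus and amygdala became 0.25. Within codes 10 or 14 to 17, frontal miR-204 at 1 week against sham became 0.30.

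Counts of miRNAs called moved by over 1.5 times in some settings. With the covariate the frontal lobe had 56 at 1 day (127 without it) and 20 with CsA (97), and the hippocampus and amygdala 57 at 1 day, 2 with CsA (59) and 0 at 1 week (1) against sham. With codes 11 it was 35 for frontal CsA minus sham and 17 for CsA minus 1 day in the hippocampus and amygdala. With codes 12 or 13 edgeR called 0 for 1 day or CsA against sham in either region, with 34 to 61 at an unadjusted p under 0.05 and 0 to 10 by DESeq2. Within codes 11 with all 4 groups it called 0 for 1 week minus 1 day in either region, with 47 at an unadjusted p under 0.05 and 6 by DESeq2 for the hippocampus and amygdala, and 70 and 31 for the frontal lobe. For 1 week minus sham in the hippocampus and amygdala edgeR called 0 on library totals, with no filter, with unmerged entries, with only the compared groups and within either set of codes, with 13 to 41 at an unadjusted p under 0.05. DESeq2 called 3 there, 1 in the frontal lobe, 7 for CsA minus 1 day in the hippocampus and amygdala, and 26 for the CsA interaction. In the frontal lobe 1 was called for 1 week minus sham within codes 10 or 14 to 17. The split of frontal calls at 1 day into higher and lower was 53 and 74 with TMM, 74 and 63 with RLE and 100 and 46 on library totals, and with CsA 42 and 55 with TMM, 53 and 48 with RLE and 90 and 35 on library totals. That of 1 week minus 1 day was 66 and 36 with TMM, 56 and 56 with RLE and 37 and 54 on library totals. In the hippocampus and amygdala it was 82 and 59 with TMM and 131 and 34 on library totals at 1 day, and with CsA 32 and 27 with TMM, 25 and 32 with RLE and 58 and 14 on library totals, both against sham, and for 1 week minus 1 day 34 and 51 with TMM and 39 and 37 with RLE. The split between regions was 75 and 64 with TMM and 79 and 42 on library totals at 1 day, 63 and 65 and then 75 and 48 at 1 week, and 65 and 76 and then 78 and 53 in sham. On library totals the median of all miRNAs moved by up to 0.28.

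With 1 library or animal left out, values ran as follows in the frontal lobe: miR-34c at 1 day against sham from -0.11 to 0.19, miR-204 at 1 week against sham from -0.10 to 0.011, miR-204 with CsA against sham from 0.45 to 0.57, miR-34c with CsA against sham from -0.11 to 0.12, CsA minus 1 day of miR-204 from -0.10 to 0.024 and of miR-34c from -0.16 to 0.12. In the hippocampus and amygdala they were from -0.069 to 0.31 for miR-34c at 1 day, from -0.15 to 0.30 for miR-204 and from -0.023 to 0.31 for miR-34c at 1 week, and from -0.28 to 0.19 for miR-204 and from -0.18 to 0.068 for miR-34c with CsA, all against sham, and from -0.18 to 0.26 for miR-34c at 1 week against 1 day. Counts there ran from 0 to 3 at 1 week and 35 to 72 with CsA against sham, and 0 to 13 for CsA minus 1 day. The region difference of miR-34c ran from 1.24 to 1.65 at 1 week, 1.39 to 2.03 with CsA and 1.08 to 1.47 in sham, and that of miR-204 with CsA from 0.87 to 1.08. Interactions ran from -0.12 to 0.71 for miR-34c at 1 day, from -0.086 to 0.23 for miR-204 and from -0.019 to 0.42 for miR-34c at 1 week, and the count for CsA from 0 to 35.

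Among correlations, r of the pair at 1 day in the hippocampus and amygdala was 0.919 without the 2 farthest libraries and then called. Uncalled values of r that changed sign without the 2 farthest were 0.133 for the pair in frontal CsA libraries, -0.0328 (miR-204) and -0.0842 (miR-34c) between regions, and for miR-34c with the total 0.0185 in the hippocampus and amygdala and -0.0311 in the frontal lobe, the last also without libraries under 1000000 counts (-0.0311). Without libraries of miR-34c under 20 CPM, chosen after seeing the data, r was -0.111 for the pair in the frontal lobe, -0.0681 in frontal sham and -0.25 for miR-34c between regions.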
